A study of Mus musculus with 6 samples.

Results

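Transcripts of 4 zinc transporter genes and 2 metallothionein genes were measured in single cells of mouse pancreatic islets, in WT mice and in mice whose β cells lack 14-3-3ζ. The genes were *Slc30a8*, *Slc30a5*, *Slc30a7*, *Slc39a14*, *Mt1*, and *Mt2*, chosen by name, and each was found once among the 32285 genes of the count tables. There were 3 WT and 3 β14-3-3ζ–KO libraries, 1 for each mouse, all of the C57/BL6 strain and 12 to 14 weeks of age. In KO mice the Ins1-CreThor allele, active in cells that make insulin, removes exon 4 of floxed *Ywhaz*, the gene for 14-3-3ζ. WT mice were littermates that carried the same Cre without the floxed allele, so Cre was shared by both groups, and cells of an islet other than β cells were not targeted. Each count is a unique molecular identifier (UMI), which stands for 1 captured RNA molecule tagged at its 3′ end, and levels are given as CPM, the UMIs of a gene per 1000000 UMIs of all cells of 1 type in 1 library.

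β cells store zinc at a high concentration in their secretory granules, where zinc ions hold insulin in hexamers. Transporters of the SLC30 family (ZnT) move zinc out of the cytosol, either out of the cell or into granules, Golgi, and other compartments. Transporters of the SLC39 family (ZIP) move zinc into the cytosol. Metallothioneins are small cysteine-rich proteins that bind zinc and copper in the cytosol, and their genes are switched on by the transcription factor MTF-1 when free zinc rises. MTF-1 also activates *Slc30a1*, whose product exports zinc across the plasma membrane, and represses *Slc39a10*, whose product imports it. MTF-1 binds metal response elements, whose core reads TGCACNC or TGCGCNC.

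*Mt1* and *Mt2* lie on the same strand of chromosome 8, with 5513 bases between the end of *Mt2* and the start of *Mt1* (GRCm38, GENCODE vM21). *Mt2* spans chr8:94172664-94173568 and *Mt1* chr8:94179082-94180327, both on the plus strand. The 250 bases before the annotated start of each gene (RefSeq, GRCm38.p6) are shown because the levels of both genes varied together over libraries and cells, and *Slc30a1* is shown because its level varied with theirs in β cells. Capitals mark matches to that core on either strand.

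*Mt2* promoter, chr8:94172368-94172617, plus strand: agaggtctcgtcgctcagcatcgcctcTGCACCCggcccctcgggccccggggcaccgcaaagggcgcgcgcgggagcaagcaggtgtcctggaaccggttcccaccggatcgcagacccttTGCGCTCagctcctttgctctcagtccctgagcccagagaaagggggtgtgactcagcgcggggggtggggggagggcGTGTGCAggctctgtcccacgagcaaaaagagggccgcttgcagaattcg
*Mt1* promoter, chr8:94178839-94179088, plus strand: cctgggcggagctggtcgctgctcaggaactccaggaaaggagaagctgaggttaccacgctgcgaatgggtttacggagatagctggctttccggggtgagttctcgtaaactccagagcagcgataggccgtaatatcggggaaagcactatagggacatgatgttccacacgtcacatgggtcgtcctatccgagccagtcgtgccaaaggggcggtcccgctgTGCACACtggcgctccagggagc
*Slc30a1* promoter, chr1:191906531-191906780, plus strand: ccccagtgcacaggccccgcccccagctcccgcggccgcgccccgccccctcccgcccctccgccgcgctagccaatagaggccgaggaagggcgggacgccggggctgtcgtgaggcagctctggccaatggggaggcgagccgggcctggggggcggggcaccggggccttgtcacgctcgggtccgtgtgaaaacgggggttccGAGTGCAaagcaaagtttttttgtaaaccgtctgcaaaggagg

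Distances here are counted from the RefSeq start, which differs from the GENCODE start given above for both *Mt1* and *Mt2*. The *Mt2* window held 3 matches, beginning 223, 128, and 50 bases before the start. The *Mt1* window held 1 match, 23 bases before the start, and the *Slc30a1* window 1 match, 43 bases before it. Of 32851 mouse promoters of this length, 21.4% held at least 1 match and 1.26% at least 3. A window that also took in the first 50 transcribed bases held 4 matches for *Mt2* and 3 for *Mt1*, and at least 3 matches were found in 1.97% of all such windows. *Slc30a5* had 1 match, and *Slc30a7*, *Mt3*, and the 2 annotated promoters of *Slc39a10* had none in these letters. *Slc30a8* and *Slc39a14* had no entry in the promoter table used, which held 4 of the 6 genes.

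The libraries held 74083947 to 98294915 UMIs. Of 43445 barcodes, 25365 passed the filters, and 6117 were β cells, 786 to 936 in a WT library and 1098 to 1236 in a KO library. The other types compared were α cells (719), δ cells (706), *Ppy* cells (254), endothelial cells (1259), macrophages (599), and B cells (2613, with 12 in KO library 1). Markers were highest in their own type for 8 of 9 β, 6 of 8 α, 5 of 7 δ, and 3 of 5 *Ppy* genes. The share was 8 of 8 in each of the other 3 types. These lists include the hormone genes and the markers by which the types were set, so the counts are not an independent check. *Ywhaz* in all β cells was 143, 158, and 151 CPM in WT and from 19.8 to 20.9 CPM in KO libraries (scaled by TMM), and the log2 fold change was -2.90 with an SE of 0.072 (adjusted p = 7.16e-07). *Ddx3y*, from the Y chromosome, was 59.6 to 74.6 CPM in β cells of every library. KO library 2 held 1272 of the 1616 barcodes with both a hormone and markers of another cell class, and WT library 1 stood apart in the metallothionein level of several cell types, which is described with those values.

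*Slc30a8* (chr15:52295553-52335798, plus strand) encodes ZnT8, the transporter that fills insulin granules with zinc. Its level in β cells was 227, 285, and 307 CPM in WT libraries 1 to 3 and 276, 256, and 273 CPM in KO libraries 1 to 3. In α cells it was 675, 667, and 773 CPM in WT and 675, 648, and 727 CPM in KO libraries. Every library was thus higher in α cells than in any β cell sum. δ cells had 97.7 ± 23.7 CPM (SD, n = 6) and *Ppy* cells 101 ± 43.3 CPM, with ranges that overlapped. B cells, macrophages, and endothelial cells had 75.2 ± 45.2, 41.1 ± 19.7, and 28.2 ± 10.9 CPM, again with overlapping ranges.

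Insulin transcripts take 40.7% to 49.2% of all UMIs of β cells, which lowers the CPM of every other gene there. Hormone UMIs were taken as those of *Ins1*, *Ins2*, *Gcg*, *Sst*, *Ppy*, *Pyy*, and *Iapp*. With these left out of the total, *Slc30a8* was 511 ± 29.5 CPM in β cells and 958 ± 51.4 CPM in α cells. The order of both types was therefore kept. In the test of β against α cells within libraries (edgeR, TMM), *Slc30a8* was lower in β cells by a log2 difference of -0.99 (SE 0.101, adjusted p = 1.86e-10), and it was lower in 6 of 6 libraries. Against δ cells it was higher in β cells by 2.04 (SE 0.115, adjusted p = 4.27e-17) and against *Ppy* cells by 1.37 (SE 0.125, adjusted p = 2.95e-11), each in 6 of 6 libraries.

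Droplets can also hold free RNA from broken cells, and *Slc30a8* outside the endocrine cells was compared with that from β cells. If all insulin UMIs found in endothelial cells came with β cell RNA, that RNA would carry 18.9 CPM of *Slc30a8*, beside the 28.2 CPM measured. The same values were 25.2 beside 41.1 CPM in macrophages and 41.4 beside 75.2 CPM in B cells. In α cells β cell RNA would carry 21.4 CPM, beside 695 ± 46.7 CPM measured. After each cell was thinned to 1000 UMIs, a *Slc30a8* UMI was found in 3.23% to 6.12% of macrophages and in 30.8% to 57.7% of α cells. Without thinning the macrophage share was 18.6% to 34.5%. Macrophage values were taken as the background of this gene and not read as expression.

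*Slc30a5* (chr13:100802648-100833427, minus strand) and *Slc30a7* (chr3:115938973-116007406, minus strand) encode ZnT5 and ZnT7, which load zinc into the early secretory pathway. With all UMIs in the total, both were measured at similar levels in all 7 cell types. *Slc30a5* ranged from 29.9 ± 6.32 CPM in *Ppy* cells to 44.1 ± 7.72 CPM in macrophages, with 33.7 ± 3.93 CPM in β cells. *Slc30a7* ranged from 11.6 ± 6.06 CPM in B cells to 22.2 ± 1.87 CPM in δ cells, with 19.8 ± 2.62 CPM in β cells. The ranges of neighbours in either order overlapped. With hormone UMIs left out of the total, both genes were highest in β cells on average. *Slc30a5* was then 63.6 ± 5.72 CPM in β cells and 35.5 ± 5.10 CPM in endothelial cells. *Slc30a7* was 37.4 ± 3.56 CPM in β cells, 20.1 ± 4.54 CPM in endothelial cells, and 20.3 ± 3.44 CPM in macrophages. The range of β cells overlapped those of α and *Ppy* cells for both genes. For *Slc30a5* it also overlapped those of δ cells and macrophages.

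*Slc39a14* (chr14:70303469-70351425, minus strand) encodes ZIP14, an importer of zinc that also carries iron and manganese. Its level in β cells was 10.3 ± 0.536 CPM. α cells had 17.1 ± 3.47 CPM and endothelial cells 17.3 ± 2.02 CPM. *Ppy* cells, δ cells, B cells, and macrophages had 10.1 to 12.4 CPM on average.

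**Figure D1:**
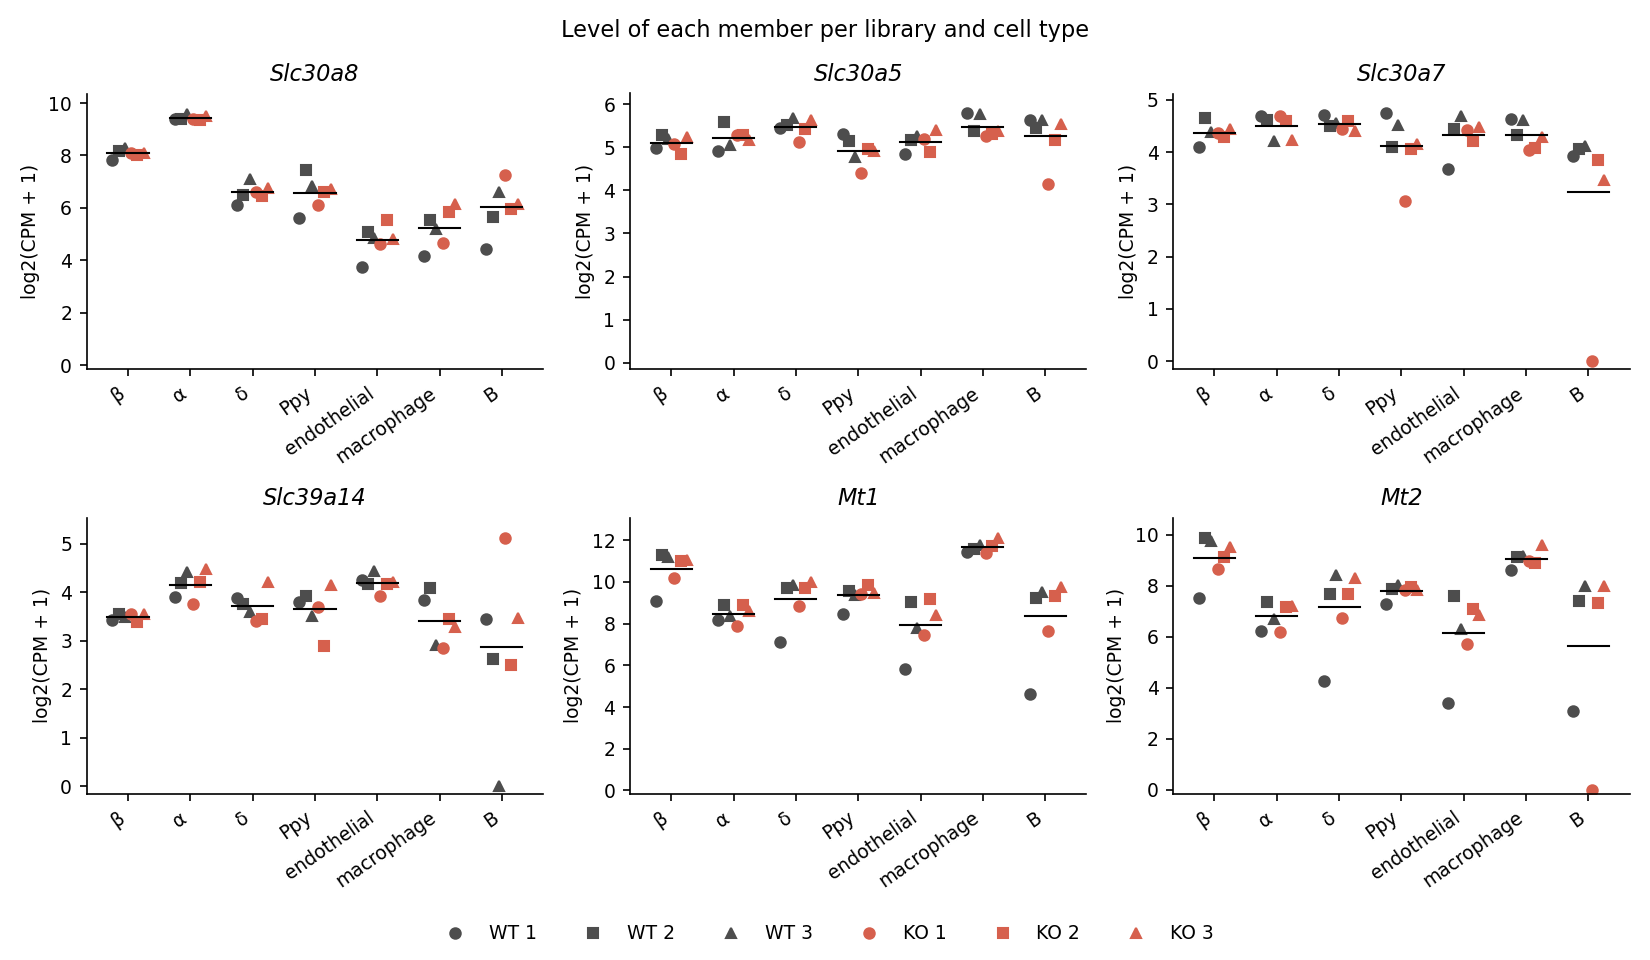
Level of each of the 6 genes, as log2(CPM + 1), in 7 cell types, with 1 point per library (grey for WT, red for KO, the shape giving the library number) and a line at the mean of the 6 libraries. *Slc30a8* points are highest in α cells and next in β cells. *Mt1* and *Mt2* points are high in β cells and macrophages with a wide spread between libraries. The other 3 genes have means at similar heights in all types, apart from B cells, where KO library 1 had 12 cells. Totals include hormone UMIs.

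The share of genes called between β cells and another endocrine type was large: 62.1% against α cells, 61.1% against δ cells, and 51.1% against *Ppy* cells, of 10353 genes tested. Of the 6 genes, 5, 6, and 3 were called in these comparisons. Genes called higher in β cells were 30.4%, 31.4%, and 26.3% of those tested, and genes called lower 31.6%, 29.7%, and 24.8%, while 3, 6, and 3 of the 6 were higher and 2, 0, and 0 lower. *Slc30a8*, *Mt1*, and *Mt2* were called in the same direction in all 3 comparisons and under all 3 scalings tried. The smaller differences of the other 3 genes were not as stable. With TMM, *Slc30a5* was higher in β than in α cells by 0.24 (SE 0.087, adjusted p = 0.0161). It was higher than in δ cells by 0.19 (SE 0.082, adjusted p = 0.0425). Without TMM these values were -0.13 and -0.37, and the second was a call in the opposite direction (edgeR, adjusted p = 0.000397). *Slc30a7* was higher than in δ cells by 0.39 (SE 0.104, adjusted p = 0.00161) and differed from α cells by 0.24 (SE 0.109, adjusted p = 0.0569), and without TMM by -0.17 and -0.13. *Slc39a14* was lower than in α cells by a log2 difference of -0.39 (SE 0.119, adjusted p = 0.00538), which was -0.75 without TMM and -0.31 with hormone UMIs left out, and higher than in δ cells by 0.30 (SE 0.125, adjusted p = 0.0403), which turned to -0.27 without TMM. Against *Ppy* cells these 3 genes differed by 0.20, 0.21, and -0.26 and were not called.

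TMM shifts all genes here. The median log2 difference of all genes was -0.02 against α cells and 0.01 against δ cells with TMM, and -0.39 and -0.55 without it. Of the genes called, 49.1% were higher in β cells than in α cells with TMM, 17.2% without it, and 58.6% with hormone UMIs left out of the totals. Against δ cells the shares were 51.3%, 7.29%, and 46.0%. The call of *Slc30a5* against α cells was lost without WT library 1, WT library 3, or KO library 3 (adjusted p = 0.0556, 0.0737, and 0.0725). Its call against δ cells was lost without WT library 1, WT library 2, or KO library 1 (adjusted p = 0.112, 0.101, and 0.209). The call of *Slc39a14* against δ cells was lost without any library except KO library 3 (adjusted p from 0.0709 to 0.201), and *Slc30a7* against α cells was called without WT library 1 or KO library 1 (adjusted p = 0.0239 and 0.0186).

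The metallothioneins were among the abundant transcripts of β cells, and they differed between libraries more than between genotypes. *Mt1* in β cells was 537, 2472, and 2336 CPM in WT libraries 1 to 3 and 1154, 2017, and 2148 CPM in KO libraries 1 to 3. *Mt2* in β cells was 184, 938, and 872 CPM in WT and 407, 560, and 733 CPM in KO libraries. Library 1 of each genotype was the lowest of its group for both genes, and WT library 1 was the lowest of all 6.

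In α cells *Mt1* was 363 ± 97.7 CPM and *Mt2* 117 ± 39.5 CPM. β cells were higher than α cells by a log2 difference of 2.54 for *Mt1* (SE 0.176, adjusted p = 1.21e-14) and 2.71 for *Mt2* (SE 0.205, adjusted p = 1.18e-13). Against δ cells the differences were 1.92 (SE 0.167, adjusted p = 5.01e-12) and 2.25 (SE 0.191, adjusted p = 2.6e-12). Against *Ppy* cells they were 1.26 (SE 0.170, adjusted p = 1.36e-07) and 1.36 (SE 0.201, adjusted p = 7.43e-07). Each of these differences had the same direction in 6 of 6 libraries, WT library 1 included. Both genes were thus highest in β cells among the endocrine types, while *Slc30a8* was highest in α cells.

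With all UMIs in the total, macrophages had the highest *Mt1* of the 7 types, from 2670 to 4378 CPM, above the highest β cell library. With hormone UMIs left out, macrophages had 2758 to 4664 CPM and β cells 1137 to 4554 CPM, so these ranges overlapped. β cell RNA in the macrophage droplets would carry 185 CPM of *Mt1*, with all UMIs in the total. *Mt2* in macrophages was 545 ± 128 CPM, within the range of β cells. With hormone UMIs left out, *Mt2* was 573 ± 139 CPM in macrophages and 1145 ± 510 CPM in β cells. The ratio of *Mt1* to *Mt2* UMIs was 2.93 ± 0.349 in β cells (n = 6) and 6.13 ± 0.793 in macrophages, with ranges of 2.64 to 3.60 and 5.37 to 7.11 that did not overlap. α cells (3.18 ± 0.391), *Ppy* cells (3.01 ± 0.508), and B cells (3.36 ± 0.377 over 5 libraries) had ratios near that of β cells. With all UMIs in the total, β cell RNA in B cell droplets would carry 301 of 506 CPM of *Mt1*. For *Mt2* it would carry 103 of 141 CPM. In α cells these values were 149 of 363 and 50.2 of 117 CPM. In *Ppy* cells they were 220 of 688 and 76.0 of 226 CPM. The part of free RNA in these ratios was not tested. δ cells (4.31 ± 1.69) and endothelial cells (3.64 ± 1.17) varied more, up to 7.55 and 5.74, and so reached the range of macrophages. The genes are close paralogs, and reads that fit both could have been split between them or lost in counting.

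The question of the design was whether loss of 14-3-3ζ in β cells changed transcript levels. From KO libraries only β cells without a *Ywhaz* UMI entered this comparison, 685, 840, and 596 of them. None of the 6 genes was called, where 0.0106% of 9442 genes were (1 gene, *Ywhaz* itself, whose call here follows from how the KO cells were chosen). With all KO β cells kept, 0.0106% of 9460 genes were called, again *Ywhaz*. None of the 6 reached an unadjusted p under 0.05, against 4.98% of all genes, and WT and KO libraries overlapped for all 6, while 11.5% of genes did not overlap. With the replicate number as a block, 13 genes were called and again none of the 6. DESeq2 called 8 genes. Without TMM, 2 genes were called higher and 14 lower, where the main test called 0 higher and 1 lower.

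The transporter genes were measured closely enough to bound a change. *Slc30a8*, at 258, 269, and 285 CPM in WT and 289, 277, and 260 CPM in KO libraries after TMM, had a log2 fold change of 0.03 (SE 0.080, 95% interval -0.20 to 0.25, adjusted p = 0.962). *Slc30a5* was 33.05 to 36.0 CPM in WT and 29.0 to 35.5 CPM in KO libraries, with a fold change of -0.13 (SE 0.090, interval -0.38 to 0.13, adjusted p = 0.861). It had the smallest unadjusted p of the 6 genes, 0.198. *Slc30a7* was 18.3, 22.7, and 18.6 CPM in WT and 20.2, 19.2, and 18.5 CPM in KO libraries, a change of -0.04 (interval -0.32 to 0.24). *Slc39a14* was 11.1, 10.0, and 9.50 CPM in WT and 11.2, 9.59, and 9.49 CPM in KO libraries, a change of -0.02 (interval -0.32 to 0.28).

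The metallothionein genes were not measured closely. *Mt1* after TMM was 610, 2328, and 2171 CPM in WT and 1212, 2094, and 2016 CPM in KO libraries, a log2 fold change of 0.06 (SE 0.429, interval -1.13 to 1.25, adjusted p = 0.988). *Mt2* was 209, 883, and 810 CPM in WT and 439, 567, and 678 CPM in KO libraries, a change of -0.18 (SE 0.433, interval -1.38 to 1.03, adjusted p = 0.951). The SD over the 6 libraries on the log2 scale was 0.754 for *Mt1* and 0.762 for *Mt2*, higher than in 99.9% of genes tested, beside a median of 0.114 over all genes and 0.068 for *Slc30a8*. Without WT library 1 the change of *Mt1* was -0.34, and over all single libraries left out it ran from -0.34 to 0.35. *Ywhaz*-free cells of WT libraries gave *Mt1* levels of 97.96, 2134, and 1659 CPM, so a cell chosen for lacking a *Ywhaz* UMI was not always like the rest of its library. With all KO β cells kept, none of the 6 genes was called.

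**Figure D2:**
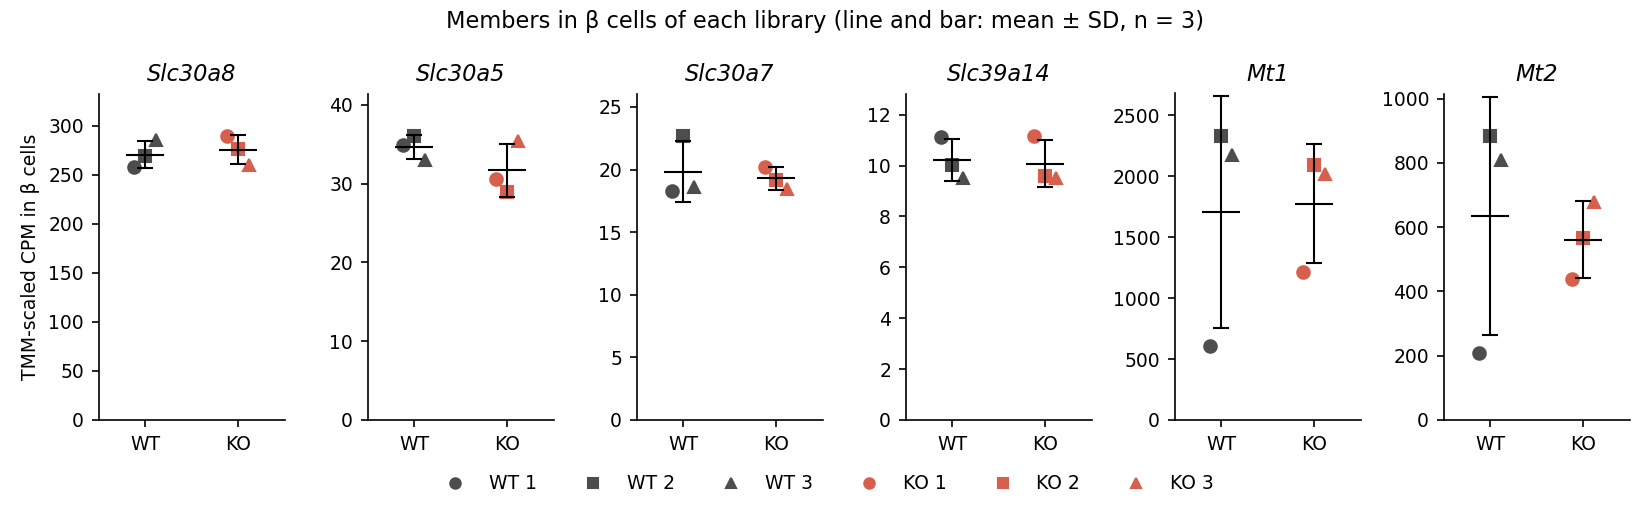
TMM-scaled CPM of the 6 genes in β cells of each WT and KO library (linear axes from 0; KO cells without a *Ywhaz* UMI), with the mean and SD of each group (n = 3). WT and KO points overlap for every gene, tightly for *Slc30a8* and over a wide range for *Mt1* and *Mt2*, where library 1 of each genotype lies lowest.

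None of the 6 genes was called between genotypes in α, δ, *Ppy*, or endothelial cells, macrophages, or B cells, where no gene was called in α, δ, endothelial, and B cells (0%), 0.0107% in *Ppy* cells, and 0.0149% in macrophages. The genotype difference in β cells was also compared with that in α and in δ cells (limma-voom, library as a block). None of the 6 genes differed, and 0.00978% of 10227 genes did in each comparison.

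The share of β cells with a UMI was compared after each cell was thinned to 5000 UMIs. *Slc30a8* was found in 66.8%, 70.4%, and 74.8% of WT cells and 73.6%, 67.9%, and 72.3% of KO cells, a difference of 0.585 percentage points (2-sided exact permutation p = 0.9). Without thinning nearly every β cell had a *Slc30a8* UMI, 98.5% on average in WT and 96.8% in KO libraries. The shares for *Slc30a5* were 16.2% in WT and 14.9% in KO (exact permutation p = 0.6). Those for *Slc30a7* were 8.87% and 8.59% (exact permutation p = 0.8), and those for *Slc39a14* 4.55% and 4.99% (exact permutation p = 0.6). With 3 libraries against 3 this test cannot give a p below 0.1.

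*Mt1* was found in 34.9%, 92.2%, and 86.2% of thinned WT β cells and in 65.8%, 95.2%, and 90.4% of KO cells (exact permutation p = 0.6). *Mt2* was found in 20.1%, 73.5%, and 67.9% of WT cells and 47.2%, 75.5%, and 70.0% of KO cells (exact permutation p = 0.6). Within the 3 same-numbered pairs, which the labels do not give, the KO share was higher in 3 of 3 for both genes. The unpaired test does not use this. In CPM of the same cells, both genes were higher in KO in pair 1 but lower in pairs 2 and 3. There *Mt1* was 1969 beside 2472 CPM and 2130 beside 2336 CPM in WT. *Mt2* was 533 beside 938 CPM and 716 beside 872 CPM. Thinning is a random draw: another draw found *Mt1* in 32.1% of β cells of WT library 1. In a separate draw that kept all KO β cells, 65.9% of β cells of WT library 1 had no *Mt1* or *Mt2* UMI at 5000 UMIs per cell, beside 27.8% in KO library 1 and 3.16% to 8.76% in the other 4 libraries.

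At the other end, some β cells of every library held many metallothionein molecules. Cells with 51 or more *Mt1* and *Mt2* UMIs per 5000 made up 1.27%, 6.51%, and 7.16% of the WT and 2.80%, 2.91%, and 6.10% of the KO β cells. At the same depth the median β cell had 0, 6, and 6 *Mt1* UMIs in WT and 2, 7.5, and 6 in KO libraries, and the highest cell of a library had 109 to 196. The 10% of cells with the most held 83.9%, 46.5%, and 46.9% of *Mt1* UMIs in WT and 56.0%, 36.3%, and 42.2% in KO mice. The variance of *Mt1* over cells was 16.2 to 31.0 times its mean after thinning, beside 1.13 to 1.36 times for *Slc30a8*, where 1 is the value for random sampling alone. Across cells of a library, *Mt1* and *Mt2* had a Pearson r of 0.68 to 0.85. Every other pair of the 6 genes had an r from -0.103 to 0.106. At this depth *Slc30a5*, *Slc30a7*, and *Slc39a14* averaged at most 0.199, 0.120, and 0.0556 UMIs per cell in a library. An r near 0 therefore says little about these genes.

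**Figure D3:**
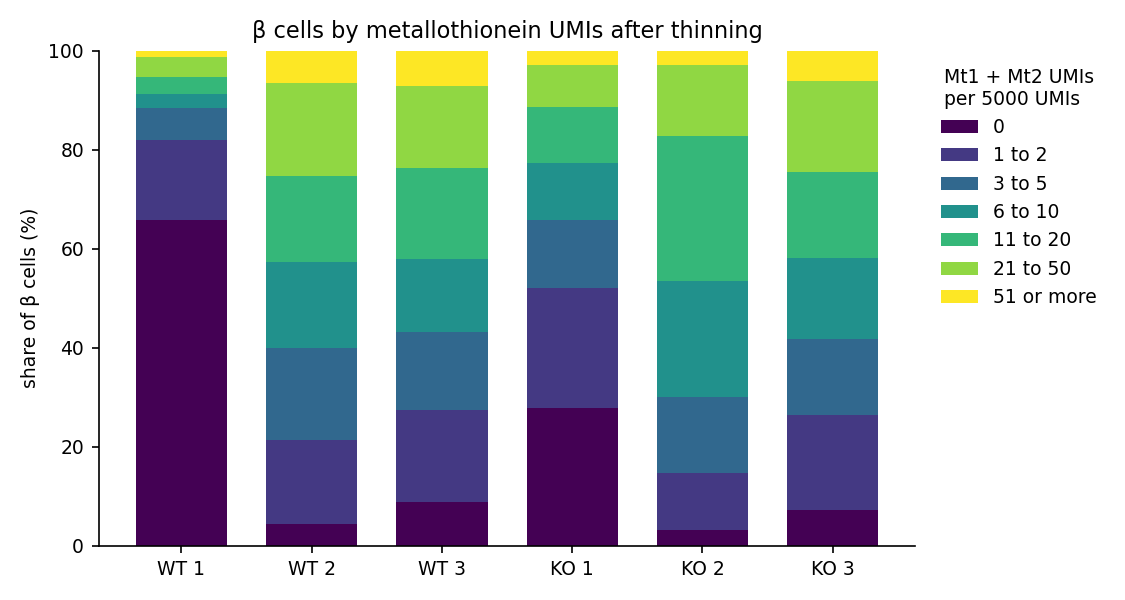
Stacked bars of the share of β cells (percent) by the number of *Mt1* and *Mt2* UMIs per cell after thinning to 5000 UMIs, with 1 bar per library. WT library 1 has 65.9% of its cells at 0 and KO library 1 has 27.8%, while the other 4 libraries have 3.16% to 8.76% there.

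The same libraries were low in most of the other cell types compared. WT library 1 had the lowest *Mt1* level of the 6 libraries in β, δ, *Ppy*, endothelial, and B cells, and the second lowest in α cells and macrophages, where KO library 1 was lowest. Stellate and T cells were too few in some libraries to be compared. In stellate cells *Mt1* was highest in WT library 1, at 1903 CPM (18 cells), and next in KO library 1, at 934 CPM (12 cells). The other libraries had 366 to 682 CPM there. In T cells KO library 1 was lowest at 238 CPM (11 cells) and WT library 1 next at 426 CPM. The highest library exceeded the lowest by 4.60-fold for *Mt1* in β cells, 7.28-fold in δ cells, 10.4-fold in endothelial cells, 36.6-fold in B cells, and 2.64-fold in *Ppy* cells, but by 1.99-fold in α cells and 1.64-fold in macrophages. *Slc30a8* differed by 1.35-fold between libraries in β cells and by 1.19-fold in α cells. In the types with a low level of it, the fold was 2.02 in δ, 3.61 in *Ppy*, 3.62 in endothelial, and 7.31 in B cells and 4.04 in macrophages, with WT library 1 the lowest in each. β cell RNA in the droplets would carry 141 CPM of *Mt1* into endothelial cells, where 314 ± 202 CPM were measured. In B cells of WT library 1 it would carry 17.5 of 23.3 CPM and in those of WT library 2 359 of 591 CPM. The part of free RNA in the library pattern was not tested.

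*Slc30a1*, the zinc exporter, was lowest in library 1 of each genotype in β cells, as the metallothioneins were, with 4.68, 16.2, and 16.5 CPM in WT and 9.02, 14.7, and 14.0 CPM in KO libraries. *Slc39a10*, the importer, was highest in library 1 of each genotype, with 25.3, 9.44, and 11.9 CPM in WT and 22.0, 7.40, and 10.8 CPM in KO libraries. Library 1 of each genotype was therefore low in *Mt1*, *Mt2*, and *Slc30a1* and high in *Slc39a10*. *Slc39a10* was also high in library 1 of both genotypes in δ cells (44.3 and 29.6 CPM, beside 11.3 to 21.9 CPM in the others) and in endothelial cells (77.8 and 77.3 CPM, beside 37.4 to 59.6 CPM). *Slc30a1* was lowest in library 1 of both genotypes in α cells too (5.09 and 5.75 CPM, beside 8.76 to 13.2 CPM), while in macrophages WT library 1 was the highest, at 62.9 CPM. Neither gene was called between genotypes in β cells, with log2 fold changes of 0.09 for *Slc30a1* and -0.35 for *Slc39a10*.

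WT library 1 also had the highest insulin share of β cell UMIs (49.2%, beside 40.7% to 43.7% in the others) and the highest median UMI count per β cell (43422, beside 20916.5 to 32896.5). KO library 1, the next lowest in *Mt1*, had 42.1% insulin and a median of 31154 UMIs, within the range of the other 4 libraries. Glucocorticoid target genes summed to 128, 144, and 152 CPM in WT and 156, 132, and 149 CPM in KO β cells. Oxidative response genes summed to 475, 433, and 459 CPM in WT and 468, 405, and 433 CPM in KO. Immediate early and heat shock genes summed to 362, 320, and 313 CPM in WT and 317, 224, and 215 CPM in KO. The oxidative sum and the immediate early and heat shock sum were each highest in library 1 of each genotype. The part of these genes in the library pattern was not tested. In β cells with at least 3000 detected genes *Mt1* was 596, 2534, and 2357 CPM in WT and 1193, 1984, and 2173 CPM in KO libraries, so the order was kept.

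**Figure D4:**
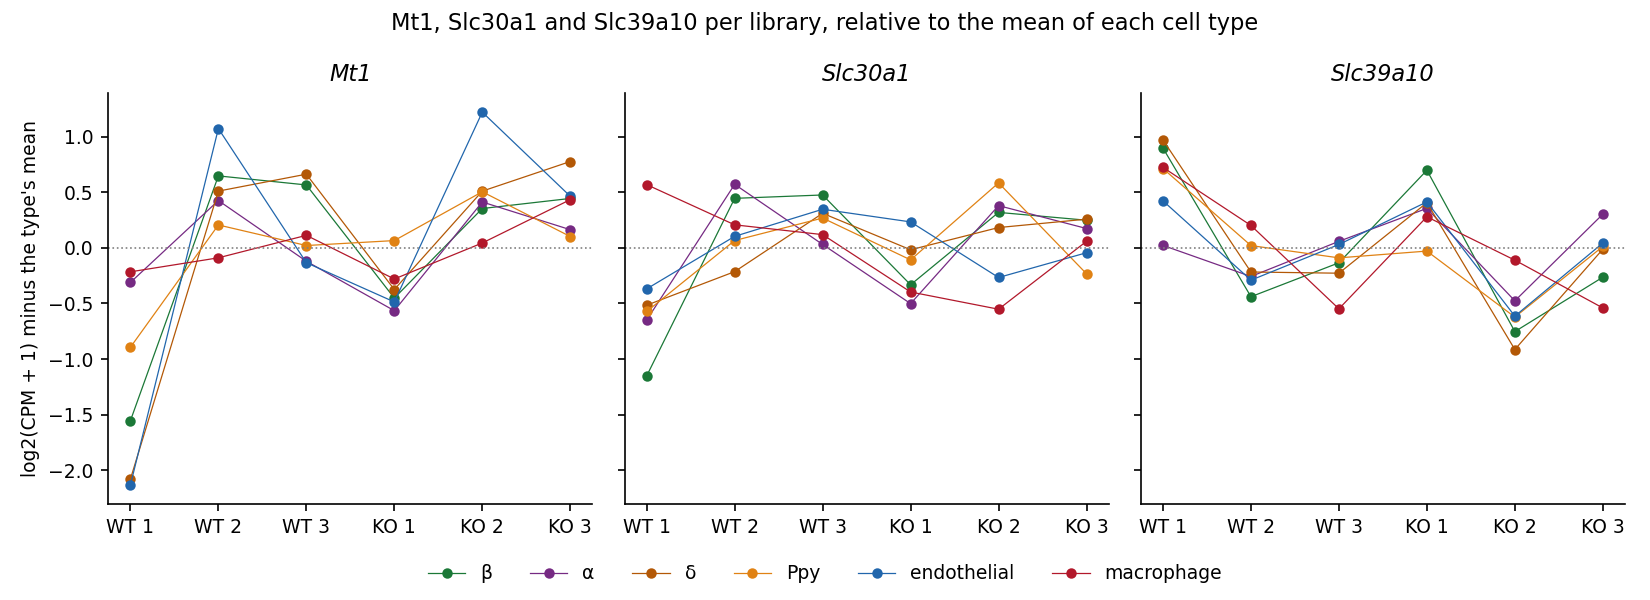
Level of *Mt1*, *Slc30a1*, and *Slc39a10* in each library as log2(CPM + 1) minus the mean of the 6 libraries in that cell type, with 1 line for each of 6 cell types. In β cells, library 1 of each genotype is below the mean in *Mt1* and *Slc30a1* and above it in *Slc39a10*, while *Slc30a1* of macrophages is highest in WT library 1.

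To see what went with metallothionein among β cells of 1 library, the 25% of cells with the highest *Mt1* and *Mt2* share (Mt-high) were compared with the 25% with the lowest (Mt-low), in each library, with hormone and metallothionein UMIs left out of the totals. This comparison was chosen after the values were seen, and cells of 1 library are not replicates, so it is given as a description. Of 9236 genes, 16.9% were higher in Mt-high cells in 6 of 6 libraries and 9.85% lower in 6 of 6. *Slc30a1* had the largest positive difference of all 9236 genes, with 12.5 CPM in Mt-low and 38.3 CPM in Mt-high cells on average, a difference of log2(CPM + 1) of 1.66 ± 0.511 (SD, n = 6), and it was higher in 6 of 6 libraries. In WT library 1 it went from 3.71 to 25.8 CPM and in KO library 1 from 7.06 to 29.6 CPM. *Slc39a10* was lower in 6 of 6 libraries, from 41.8 to 15.5 CPM, with a log2 difference of -1.42 ± 0.296. Only *Pappa2* (-2.24) and *Pdyn* (-1.49) had larger negative differences.

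*Slc30a8* was also lower in cells with much metallothionein. Its level went from 576 to 416 CPM on average, a log2 difference of -0.46 ± 0.129, and it was lower in 6 of 6 libraries. In β cells with at least 3000 detected genes the difference was -0.39 ± 0.0886. The size depends on the total. With all UMIs in the total, Mt-low and Mt-high cells had 249.5 and 210 CPM in WT library 1, 286 and 241 in WT library 2, and 292 and 262 in WT library 3. In KO libraries 1 to 3 they had 264 and 257, 257 and 228, and 253 and 238 CPM, lower again in 6 of 6 libraries but by less. *Slc39a14* was higher in 5 of 6 libraries (0.28 ± 0.248), *Slc30a5* in 3 of 6 (0.06 ± 0.219), and *Slc30a7* in 1 of 6 (-0.17 ± 0.171). *Mt3*, another metallothionein gene of the same cluster, was lower in 6 of 6 libraries (-0.77 ± 0.452), opposite to *Mt1* and *Mt2*. *Mtf1*, which encodes MTF-1, was higher in 4 of 6 (0.07 ± 0.144).

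Other features differed between Mt-high and Mt-low cells. The insulin share of UMIs was lower in the Mt-high cells of every library, for example 36.1% beside 49.3% in WT library 3 and 35.5% beside 47.2% in KO library 3. The median UMI count per cell was also lower there in every library, by little in WT library 1 (43189 beside 43197.5) and by more in KO library 3 (29611 beside 37631). The median mitochondrial share of UMIs was higher in Mt-high cells of 6 of 6 libraries, from 4.503% beside 4.55% in KO library 2 to 3.49% beside 5.57% in KO library 1. *Ddit3*, a transcription factor gene of the ER stress response, was 176 CPM in Mt-low and 367 CPM in Mt-high cells (1.07 ± 0.212, 6 of 6 libraries). *Igfbp5* (1.27) and *Cxcl16* (1.26) came next to *Slc30a1* in the size of the difference. Of 7 immediate early genes measured, 4 were lower in 6 of 6 libraries and none was higher in 6 of 6. The summed level of macrophage markers was 23.6 to 33.3 CPM in Mt-low and 21.1 to 32.8 CPM in Mt-high cells. The part of insulin content, depth, mitochondrial share, and *Ddit3* in the difference of *Slc30a8* was not tested.

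**Figure D5:**
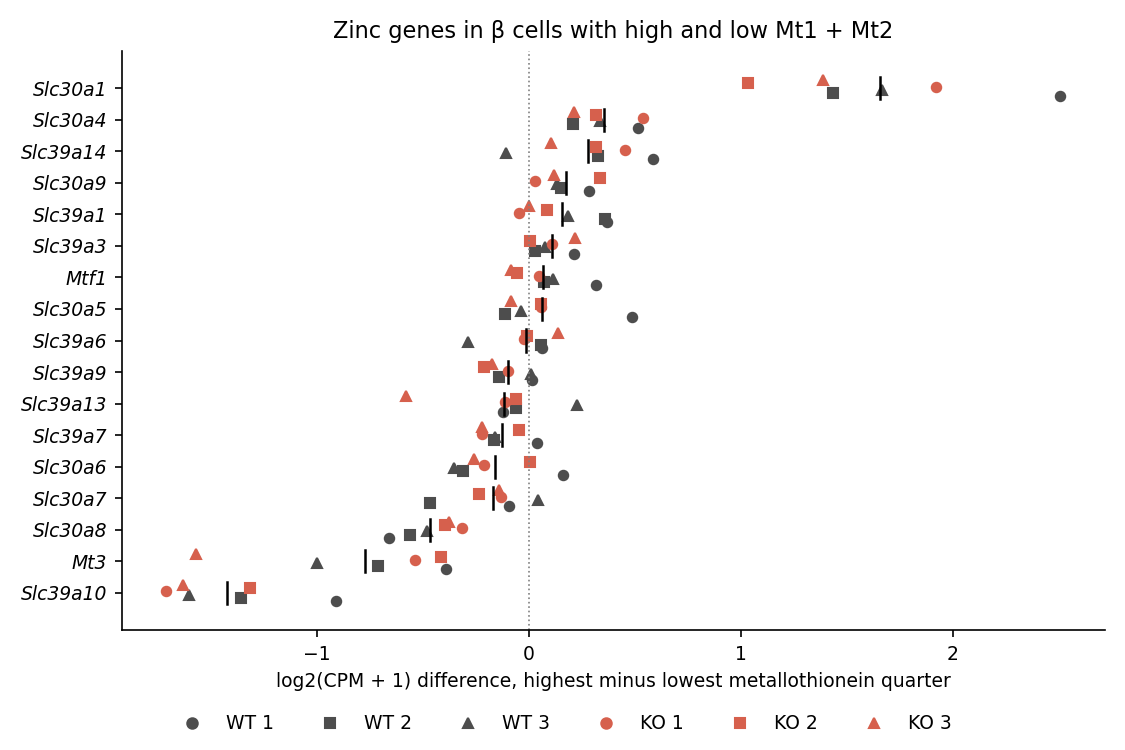
Difference in log2(CPM + 1) between Mt-high and Mt-low β cells for 17 zinc genes, with 1 point per library and a line at the mean. All 6 points of *Slc30a1* lie above 0, and all 6 of *Slc39a10*, *Mt3*, and *Slc30a8* lie below 0.

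A list of 29 genes of the ZnT and ZIP families, the metallothioneins, and *Mtf1*, with the 6 genes among them, was described in the same way. Between genotypes in β cells 19 were tested, 4 had a positive and 15 a negative log2 fold change, and none was called or reached an unadjusted p under 0.05. The median was -0.06, beside 0.00 over all genes. Of the listed genes outside the 6, *Slc39a7*, for the ZIP7 transporter of the ER, was highest in β cells, at 85.3 ± 4.60 CPM. *Slc30a9* at 56.8 ± 5.73 CPM, *Mtf1* at 27.4 ± 2.52 CPM, and *Slc39a9* at 26.7 ± 2.22 CPM came next. Among the 6, *Slc30a8*, *Mt1*, *Mt2*, and *Slc30a5* (33.7 ± 3.93 CPM) were above *Mtf1* and *Slc39a9*.

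Between β cells and the other endocrine types 20 of the 29 genes were tested. With TMM, 9 were called higher and 4 lower against α cells (median 0.21, beside -0.02 over all genes), 14 higher and 1 lower against δ cells (0.34 beside 0.01), and 9 higher and 1 lower against *Ppy* cells (0.30 beside 0.01). Without TMM the counts were 4 and 6 against α cells, where 1326 of 10353 genes were called higher and 6379 lower, and 4 and 10 against δ cells, where 636 were called higher and 8084 lower. With TMM, *Slc39a7* was higher in β than in α cells by 0.46 and *Slc30a4* by 0.41, while *Slc39a11* was lower by a log2 difference of -1.87. *Mt3*, at 7.68 ± 1.89 CPM in β cells, was higher than in α cells by 3.06, and like *Mt1* and *Mt2* it was higher in 6 of 6 libraries.

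The genes most like each of the 6 were sought over the 42 sums of 7 cell types in 6 libraries, among 9082 genes with a mean of at least 10 CPM. These sums share libraries and free RNA, so the r values are descriptions. *Slc30a8* was most like *Slc38a4* (r = 0.977), *Slc7a2* (0.939), and *Maob* (0.931), of which the first 2 encode amino acid transporters. *Mt1* and *Mt2* were each other's nearest gene (0.852). *Mt1* came next to *Sirpa* (0.829) and *Creg1* (0.812), and *Mt2* to *Eps8* (0.812). For *Slc30a5* the highest r was 0.749 (*Tars2*), for *Slc30a7* 0.919 (*Ogdh*), and for *Slc39a14* 0.897 (*Ell*). Over the 6 β cell sums alone, *Slc30a1* was second among 7510 genes in likeness to *Mt1* (r = 0.997), after *Mcrs1* (0.998), an order that 6 points fix only loosely.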

How the data were processed

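Islet cells of 6 mice (3 WT, 3 KO) were analysed. The authors made 3′ droplet libraries, ran Cell Ranger 6.0.2 on mm10, and deposited raw UMI counts per gene and barcode, not normalized. Barcodes with fewer than 500 genes or over 10% mitochondrial UMIs (3485 and 12956) and the 0.8% per 1000 barcodes with the highest Scrublet scores (1639) were left out. Endocrine cells had at least 5000 UMIs and a hormone share of 20% (insulin), 5% (*Gcg*), 2% (*Sst*), or 10% (*Ppy*, set after cells were seen) and no second hormone at its threshold. Other types needed 1000 UMIs and 3 markers. Barcodes with several hormones (407), with a hormone and other markers (1616), or with no type (9354) were not used, and 1626 had an insulin share of 15% to 25%. Pairs of libraries shared 7 to 27 barcodes, and no library copied another.

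UMIs were summed per library and type. Genotypes were compared with edgeR 4.0.16 quasi-likelihood tests (TMM, Benjamini-Hochberg; called at FDR under 0.05 and absolute log2 fold change above 0.1) over genes with a UMI in over 15% of cells of either genotype, types with a library term, and interactions with limma 3.58.1. R 4.3.3, DESeq2 1.42.0, Python 3.11.15, and scanpy 1.11.5 were used, and scripts were tested on simulated counts. Intervals on counts cover counting error only. Same-numbered libraries deviated together in β cells (correlations 0.51, 0.42, and 0.21). In other types these correlations ran from -0.00459 (*Ppy* cells) to 0.449 (endothelial cells). The labels give replicate numbers only, so the pairing was inferred from the same data. The main genotype test used no block, and fits with the replicate number as a block were run beside it. Named genes were the 6, *Ywhaz*, markers, listed zinc, glucocorticoid, oxidative, and immediate early genes, the nearest genes by correlation, and the genes that differ most between cells high and low in metallothionein. The 6 genes and the lists were chosen with earlier results of these data known. Nothing in the labels places the mice in litters or days, so p-values measure the spread between these libraries.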

Additional observations from a re-analysis of the deposited data

Results flagged for a closer look

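*Slc39a14* was high in a cell type left out of the comparisons because it had as few as 5 cells in a library. Over 149 stellate cells of the 6 libraries it was 65.3 CPM (190 UMIs; exact Poisson 95% interval 56.4 to 75.3 CPM, counting error only), beside 6.87 CPM in T cells (5.24 to 8.84) and 10.3 CPM in β cells. With hormone UMIs left out of the total, β cells had 19.4 CPM. By library the stellate level was 40.1, 85.6, and 88.7 CPM in WT and 28.2, 57.9, and 63.9 CPM in KO libraries. No test was made.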

How the results depend on the processing

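The count of genes called between genotypes in β cells was 1. It was 13 with the replicate block, 8 with DESeq2, 16 without TMM, 9 without the filter on low counts, and 4 with all KO β cells and the replicate block (the last chosen after the data were seen). With 1 library left out it was 1 to 2, with 2 genes without WT library 2. The causes were not tested. The 6 genes gave 0 calls between genotypes under every alternative run. Between β and other endocrine cells they gave 12 to 13 of 18 calls with 1 library left out (14 in the main fit, 11 without TMM). The 11 include *Slc30a5* against δ cells, which was called in the opposite direction to the main fit. The genotype fold changes lay near 0 and several turned in sign: *Mt2* 0.0463 with the replicate block and 0.00598 with all KO cells and the block, *Mt1* -0.00869 without TMM, and *Slc30a8* -0.0515 with all KO cells kept, -0.0507 with these and the block, and -0.051 with these and a doubled UMI minimum. With 1 library left out the ranges were -0.34 to 0.35 for *Mt1*, -0.59 to 0.14 for *Mt2*, -0.0918 to 0.0659 for *Slc30a7*, -0.00978 to 0.0644 for *Slc30a8*, and -0.0965 to 0.0502 for *Slc39a14*. Without TMM, β against α cells turned to -0.13 for both *Slc30a5* and *Slc30a7*, and β against δ cells to -0.37, -0.17, and -0.27 for *Slc30a5*, *Slc30a7*, and *Slc39a14*. The shares of β cells with a UMI, KO minus WT, turned from 0.585 to -1.70 percentage points for *Slc30a8* and from 0.443 to -5.01 for *Slc39a14* without thinning. The Leiden clusters held no *Ppy* cluster, so that comparison was not made there. Depth limits *Slc39a14* most, with 256 to 448 UMIs per library in β cells, while *Mt1* had 19743 to 84211.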
